A study of Mus musculus with 42 samples.

Results

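A set of 9 neutrophil genes was followed in the liver of old mice, namely S100a8, S100a9, Ngp, Camp, Ltf, Mpo, Elane, Csf3r and Srgn. They were chosen by name, and every probe that the platform annotation assigns to 1 of these 9 symbols was taken, which gave 15 of the 25697 probes on the array. Each of 42 C57BL6/N mice, killed at 25 months of age, gave liver RNA for a single Illumina Mouse Ref8 bead array. There were 11 Rapa females and 9 control females, and 12 Rapa males and 10 control males. Rapa mice ate 14 ppm of rapamycin (Rapa), an inhibitor of the kinase mTOR, for 6 months from 19 months of age, and control mice ate the same chow with empty Eudragit, the polymer in which Rapa was encapsulated. All mice were thus of 1 strain and 1 age, and the arrays of a group were those of separate animals by their labels. Levels are log2 of the bead intensity after quantile normalization, ratios are differences of log2 levels, and a probe was taken as detected at a detection p under 0.05. A probe was called different at a Benjamini-Hochberg adjusted p under 0.05 from limma, adjusted over all 12719 probes detected on at least 9 arrays, with an absolute log2 ratio over 0.15.

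Neutrophils are short-lived phagocytes made in bone marrow, and they load their granules in order while they mature. Azurophil granules are filled first, at the promyelocyte stage, and hold myeloperoxidase (Mpo) and neutrophil elastase (Elane). Specific granules follow, at the myelocyte stage, and hold lactoferrin (Ltf), the cathelicidin precursor (Camp) and neutrophilic granule protein (Ngp). S100a8 and S100a9 form calprotectin, a calcium-binding complex that makes up much of the cytosol of mature neutrophils, and transcripts of the granule proteins are largely shut off by then. Csf3r encodes the receptor for G-CSF, the cytokine that drives neutrophil production. Srgn encodes serglycin, the proteoglycan core on which many blood cells, not only neutrophils, pack their granule proteins. In liver tissue a lower level of such a transcript can come from fewer cells or from less RNA per cell, and these cannot be told apart here.

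Of the 7 members that moved together across mice, S100a8 and S100a9 lie near each other on chromosome 3 and Ngp, Camp and Ltf near each other on chromosome 9, while Mpo is on chromosome 11 and Elane on chromosome 10. The 250 bases before the annotated start, from RefSeq on build GRCm38.p6, are printed for 5 genes, at least 1 of each compartment, each 5′ to 3′ on the strand of its gene. Capitals mark the letters TTNNGNAA (or TTNCNNAA on the other strand), a loose form of the C/EBP site, and GAGGAA (or TTCCTC), a core of the PU.1 site. C/EBP proteins and PU.1 are the main transcription factors of the neutrophil line. The windows are S100a8 at chr3:90668821-90669070 (plus strand), S100a9 at chr3:90695722-90695971 (minus strand), Ngp at chr9:110419558-110419807 (plus strand), Ltf at chr9:111019042-111019291 (plus strand) and Mpo at chr11:87793534-87793783 (plus strand).
S100a8: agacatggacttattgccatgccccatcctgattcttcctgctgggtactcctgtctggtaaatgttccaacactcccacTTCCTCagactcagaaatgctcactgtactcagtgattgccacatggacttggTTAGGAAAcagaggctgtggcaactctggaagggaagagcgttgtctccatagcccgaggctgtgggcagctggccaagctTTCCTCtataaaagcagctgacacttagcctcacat
S100a9: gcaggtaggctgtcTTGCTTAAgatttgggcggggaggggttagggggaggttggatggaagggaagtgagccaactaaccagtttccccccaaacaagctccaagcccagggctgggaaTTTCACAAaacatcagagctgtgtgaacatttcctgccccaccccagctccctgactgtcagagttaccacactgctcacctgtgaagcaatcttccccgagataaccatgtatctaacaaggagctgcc
Ngp: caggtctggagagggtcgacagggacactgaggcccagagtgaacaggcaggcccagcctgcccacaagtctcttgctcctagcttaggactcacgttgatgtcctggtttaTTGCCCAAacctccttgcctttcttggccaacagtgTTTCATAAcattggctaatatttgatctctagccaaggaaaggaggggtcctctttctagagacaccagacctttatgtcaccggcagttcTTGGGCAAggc
Ltf: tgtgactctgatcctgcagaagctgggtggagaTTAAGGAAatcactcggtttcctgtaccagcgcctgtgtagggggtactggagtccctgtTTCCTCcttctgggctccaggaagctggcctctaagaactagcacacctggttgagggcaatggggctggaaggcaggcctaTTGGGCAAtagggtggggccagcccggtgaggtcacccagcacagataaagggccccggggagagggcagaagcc
Mpo: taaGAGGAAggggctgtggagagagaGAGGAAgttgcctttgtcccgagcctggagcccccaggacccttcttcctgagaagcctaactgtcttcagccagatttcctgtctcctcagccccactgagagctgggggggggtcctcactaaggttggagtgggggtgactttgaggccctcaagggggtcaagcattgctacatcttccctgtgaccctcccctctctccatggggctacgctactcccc

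The C/EBP letters matched 3 times before Ngp, 2 times each before S100a9 and Ltf and 1 time before S100a8, and the PU.1 letters matched 2 times each before S100a8 and Mpo and 1 time each before Ltf, Elane and Csf3r. The annotation gave 10 such windows for the 9 genes, because Srgn has 2 starts. The C/EBP letters were in 5 of these 10, against 36.8% of all 32851 windows, and the PU.1 letters in 5 of 10, against 23.3% of all. No match of one motif overlapped a match of the other. The window of Camp and 1 of the 2 of Srgn held neither motif, and the other window of Srgn held the C/EBP letters 5 times. A match of this kind is a description of the letters.

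By their 10 probes that passed the filter of 9 arrays, all 9 genes entered the tests, Srgn with 2 probes (called probe 1 and probe 2) and each other gene with 1. S100a8, S100a9 and Srgn probe 1 were detected on 42 arrays, Csf3r on 38, Srgn probe 2 on 35, Elane on 25, Ltf on 19, Ngp and Camp on 14 and Mpo on 12. Male and female arrays that detected them numbered 3 and 11 for Ngp, 4 and 10 for Camp, 6 and 13 for Ltf, and 3 and 9 for Mpo. These 4 probes did not reach 9 arrays among males, so that they passed the filter through the sex in which they were high. The other 5 probes did not pass: a second probe of Ltf (5 arrays), 2 of Mpo (6 and 5) and 2 of Csf3r (3 and 1).

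The levels by mouse showed a split among the females of both diets that the males did not have. S100a8, a subunit of calprotectin, was at 9.66, 9.94, 13.36, 9.30, 14.14, 9.91, 8.49, 13.32, 15.06, 10.89 and 14.46 in Rapa females 1 to 11, and at 10.87, 9.69, 11.56, 9.49, 15.13, 14.07, 9.73, 10.03 and 15.20 in control females 1 to 9. There 5 Rapa females and 3 control females were above 13, and no other mouse was. In males S100a8 ran between 8.99 and 12.39 in the Rapa group (median 10.10) and between 8.63 and 11.66 in controls (median 9.43). On the deposited linear scale its intensity covered an 85.6-fold range over the 42 mice.

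**Figure D1:**
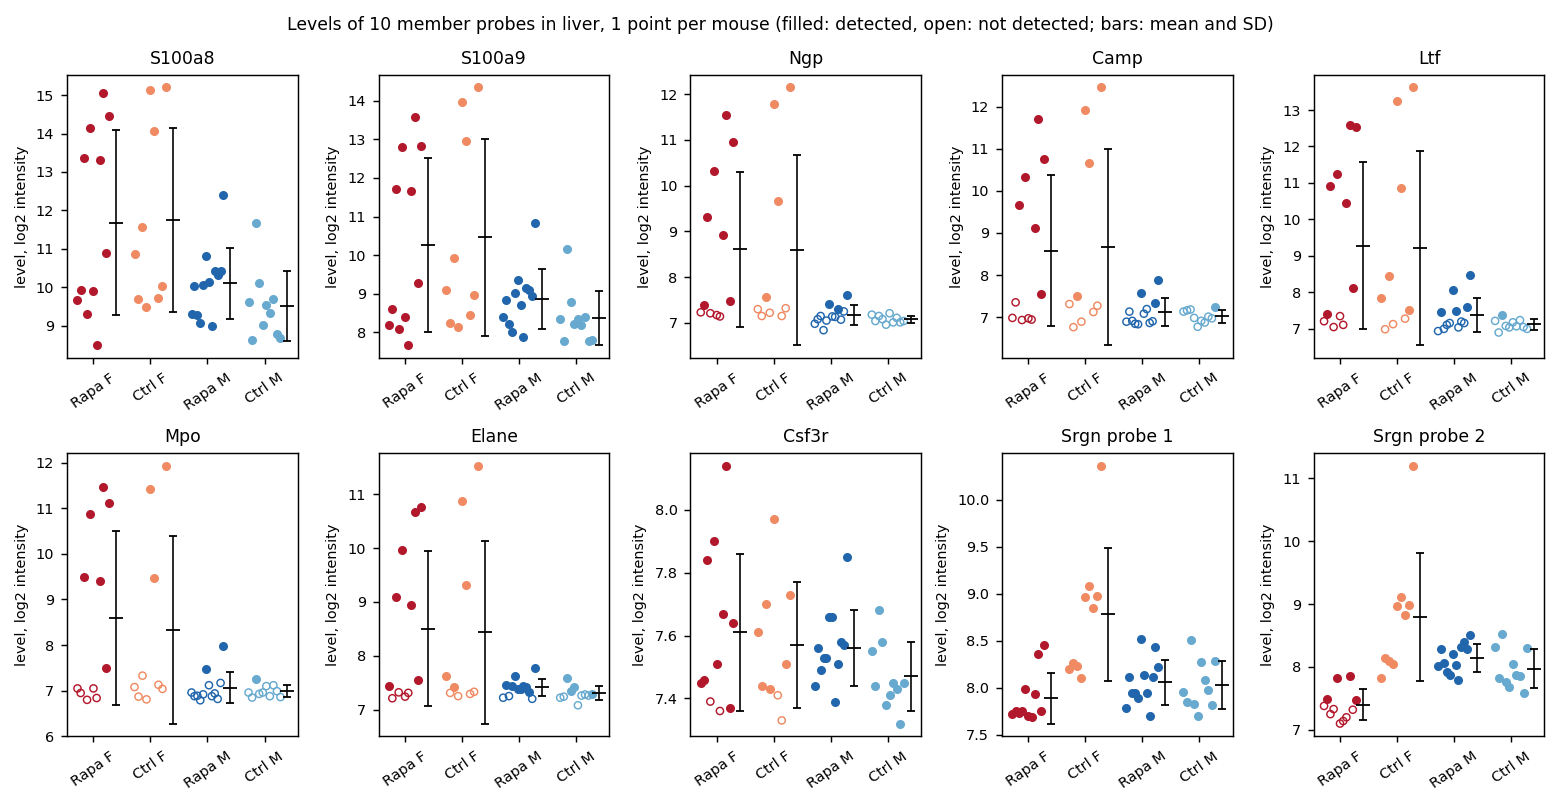
Log2 level (vertical axis) of the 10 tested probes in Rapa females, control females, Rapa males and control males, with 1 point per mouse in the order of mouse numbers, filled where the array detected the probe and open where it did not, and the mean and SD of each group as a bar. For S100a8, S100a9, Ngp, Camp, Ltf, Mpo and Elane the females of both diets fall into a high set and a low set, while Srgn is lower in Rapa females than in control females.

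S100a9, the partner subunit, showed the same split. Its lowest, median and highest levels were 7.67, 9.28 and 13.57 in Rapa females, 8.15, 9.11 and 14.34 in control females, 7.88, 8.89 and 10.83 in Rapa males, and 7.79, 8.27 and 10.15 in control males.

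Ngp, of the specific granules, was at 9.31 in Rapa female 3, 10.33 in female 5, 8.92 in female 8, 11.55 in female 9 and 10.96 in female 11, and the other 6 Rapa females were between 7.14 and 7.47. Among control females it was at 11.79 in mouse 5, 9.66 in mouse 6 and 12.15 in mouse 9, and the other 6 were between 7.15 and 7.56. It was detected in 3 of 12 Rapa males (highest 7.62) and in 0 of 10 control males (highest 7.21). The same mice were thus high for Ngp as for S100a8, with an empty stretch of 1.30 below them.

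Camp, which encodes the precursor of the antimicrobial peptide CRAMP, ran between 6.93 and 11.70 in Rapa females (median 7.56), between 6.76 and 12.46 in control females (median 7.31), between 6.83 and 7.89 in Rapa males and between 6.77 and 7.24 in control males. Ltf, an iron-binding protein, covered the widest range of the 9 genes in intensity (96.0-fold over all mice) and reached 12.59 in Rapa females, 13.62 in control females, 8.48 in Rapa males and 7.37 in control males. Its medians were 8.10, 7.85, 7.17 and 7.06 in the same groups.

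The azurophil pair followed. Mpo, which makes hypochlorous acid, reached 11.46 in Rapa females, 11.93 in control females, 7.99 in Rapa males and 7.26 in control males, with medians of 7.49, 7.13, 6.93 and 6.96. Elane, a serine protease, reached 10.76 in Rapa females, 11.53 in control females, 7.77 in Rapa males and 7.59 in control males, with medians of 7.55, 7.42, 7.40 and 7.27.

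The 8 mice with the highest Ngp were, in descending order, control females 9 and 5, Rapa females 9, 11 and 5, control female 6 and Rapa females 3 and 8. Each of the 7 genes S100a8, S100a9, Ngp, Camp, Ltf, Mpo and Elane had its 8 highest levels in these same 8 mice, and control female 9 was the highest for all 7. The number 8 was set after the values were seen, at the widest gap of 6 of the 7 genes, and for S100a9 the widest gap lay after mouse 6 of its own order. Below the 8 came a gap of 0.93 for S100a8, 0.85 for S100a9, 1.30 for Ngp, 1.23 for Camp, 1.97 for Ltf, 1.42 for Mpo and 1.17 for Elane. Of all 12719 tested probes, 17 (0.134%) had these 8 mice on top, and 349 (2.74%) had at least 6 of them. Both counts include the tested probes of the 7 genes themselves. The second probe of Ltf and the 2 further probes of Mpo, which were too seldom detected to be tested, were detected in none but these 8 mice. Csf3r had 5 of the 8 among its 8 highest mice, Srgn probe 1 had 4 and Srgn probe 2 had 3.

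**Figure D2:**
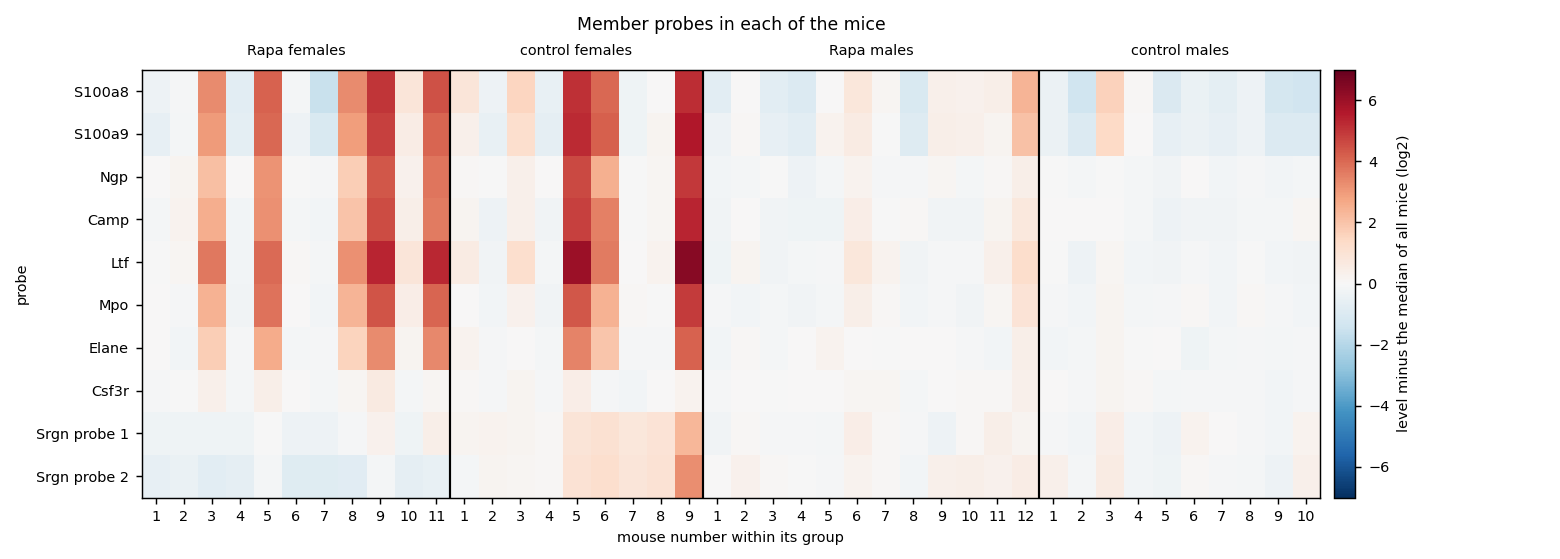
Level of each tested member probe (rows) in each mouse (columns, by group and mouse number) minus the median of all 42 mice, on a log2 colour scale. Rapa females 3, 5, 8, 9 and 11 and control females 5, 6 and 9 are high in all 7 upper rows, and the Srgn rows are high in control females 5 to 9 and low in most Rapa females.

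The arrays of control females 6 to 9 stood apart on the 9720 probes that no array detected: within these 4 the lowest Pearson r of a pair was 0.373, while the highest of the other pairs, of 861 in all, was 0.294, and they detected 9519 to 10406 probes, against 10765 to 11043 in control females 1 to 5. Control females 6 and 9 of the 8 mice belong to these 4, and control female 5 does not. The 5th percentile of the intensity was 78.4 to 80.3 in Rapa females 1 to 4 and 102 to 108 in Rapa females 5 to 11, and high mice came from both sets. Male arrays detected 11254 to 12585 probes and female arrays 9519 to 11581. Results without control females 6 to 9, and with principal components of never-detected probes as covariates, are given below. The cause of these array differences was not tested. Over the 6 tested hepatocyte genes the summed normalized intensity was 118200 to 132700 in Rapa females, 111200 to 134900 in control females, 102900 to 127700 in Rapa males and 100300 to 122700 in control males.

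The spread between mice of the same group was among the widest on the array. The SD within groups, pooled over the 4 groups, was 1.78 for S100a8, 1.73 for S100a9, 1.72 for Ltf, 1.42 for Camp, 1.37 for Mpo, 1.29 for Ngp and 1.08 for Elane, against a median of 0.17 over all tested probes. They ranked 7, 9, 10, 18, 21, 28 and 55 of 12719. Srgn had an SD of 0.40 (probe 1, rank 965) and 0.52 (probe 2, rank 470), and Csf3r, at 0.18 (rank 6004), was near the median. The sexes differed in this: S100a8 had an SD of 2.40 in Rapa females and 2.39 in control females, against 0.93 in Rapa males and 0.90 in control males, and Ngp had 1.69 and 2.08 in the same female groups, against 0.21 and 0.08 in the male groups. A difference of the spreads was not tested. In control males Ngp ranked 11126 by its SD, and S100a8 still ranked 57.

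**Figure D3:**
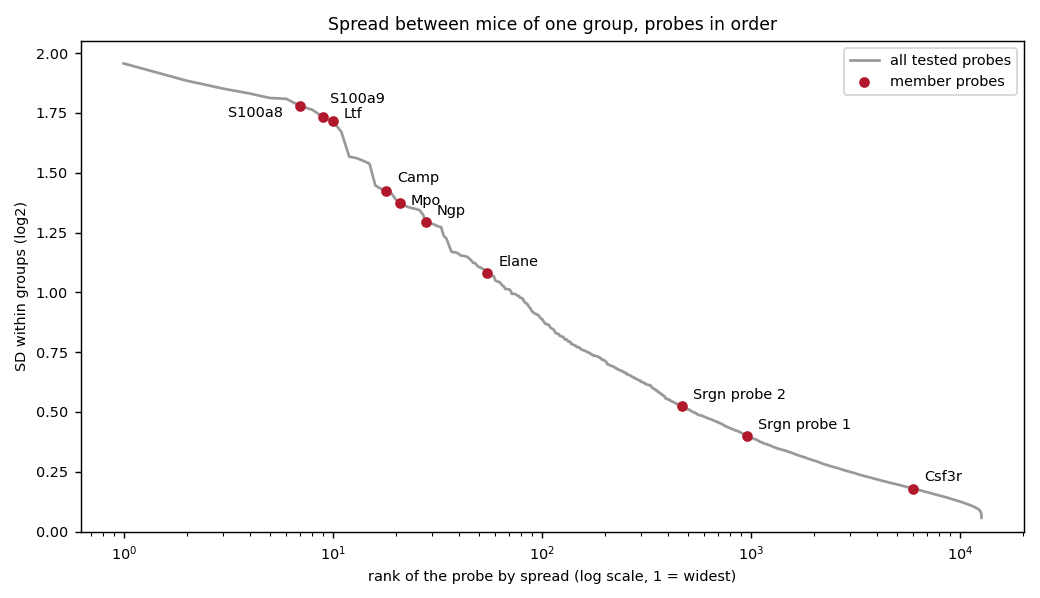
SD within groups (vertical axis, log2) of the 12719 tested probes in order of rank (horizontal axis, log scale), with the 10 member probes as points. S100a8, S100a9 and Ltf lie among the 10 widest probes and Csf3r near the middle.

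Among themselves the granule and calprotectin genes were closely alike over the 42 arrays. Their r ran from 0.9 between S100a8 and Elane to 0.991 between S100a8 and S100a9. It was 0.990 between Ltf and Mpo, 0.989 between Ngp and Mpo and 0.987 between Ngp and Camp. Over the 22 males alone the same pairs ran from 0.27 (Ngp and Elane) to 0.987 (S100a8 and S100a9). With these genes Csf3r had an r of 0.688 to 0.803 over all arrays, and the Srgn probes had 0.568 to 0.716. Between Csf3r and Srgn it was 0.39 for probe 1 and 0.359 for probe 2. Outside the 9 members, which were left out of the ranking, the genes most like the granule and calprotectin genes were mostly other neutrophil genes. Likeness was the Pearson r over 42 arrays of levels minus group means, given with Spearman's rho and no p, since the high females set much of it and all probes share the same arrays. Outside the members S100a8 was nearest to Chil3, a chitinase-like protein of myeloid cells (r = 0.947, rho = 0.912, and 0.830 for r over the 22 males), to Retnlg, a resistin-like protein of neutrophils (0.941, rho = 0.952, males 0.898), and to Ly6c1 and F13a1 (0.905 and 0.901), which are also used to mark monocytes. For S100a9, Chil3 and Retnlg came first too (0.965 and 0.961). Elane, Mpo, Ngp, Camp and Ltf all had as their nearest gene outside the members Ctsg, cathepsin G of the azurophil granules, with r = 0.990, 0.985, 0.987, 0.976 and 0.974. Ctsg itself was detected on 9 arrays, and over the 22 males alone the same r were 0.491, 0.621, 0.383, 0.592 and 0.547. Their next nearest were Ifitm6, Cd177, Chil3 and Retnlg.

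Csf3r and Srgn had other neighbours, apart from F13a1, which Csf3r shared with S100a8. Csf3r was nearest to Emilin2 (r = 0.834, rho = 0.748), F13a1 (0.817), Emb (0.813), Samsn1 (0.812) and Sirpb1a (0.811). Srgn probe 1 was nearest to 2 probes each of Napsa (0.909 and 0.896) and Coro1a (0.906 and 0.895), the actin-binding coronin of white blood cells, and to Rpl5 (0.904). Srgn probe 2 was nearest to Nfkbid (0.888), to Irf8 (0.885), a transcription factor of monocytes, dendritic cells and B cells, and to Fgl2, Lat2 and Coro1a (0.875, 0.863 and 0.860). None of these nearest to Srgn was a neutrophil granule gene of the lists used here. The plot of pairs of probes sets a granule pair beside Csf3r and Srgn.

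**Figure D4:**
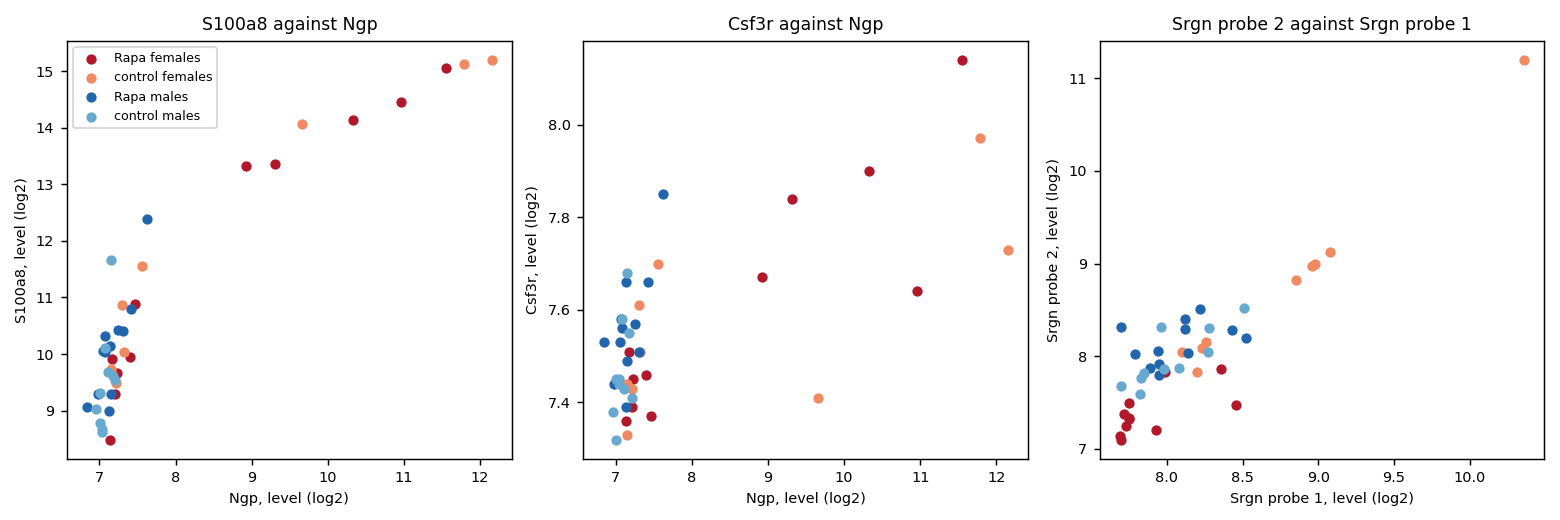
Levels (log2) of S100a8 against Ngp, Csf3r against Ngp, and Srgn probe 2 against Srgn probe 1, with 1 point per mouse coloured by group. The 8 females with Ngp above 8.9 form a chain apart from the rest in S100a8, Csf3r spans only 7.32 to 8.14, and for Srgn control female 9 is alone at the top right while most Rapa females are at the lower left.

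In females, none of the 7 granule and calprotectin genes was called with Rapa, nor was Csf3r. The ratio of Rapa females to control females was -0.07 for S100a8 (SE 0.77, 95% interval -1.62 to 1.49, limma adjusted p = 0.963), -0.20 for S100a9 (SE 0.75), 0.02 for Ngp (SE 0.56), -0.08 for Camp (SE 0.62), 0.05 for Ltf (SE 0.74), 0.25 for Mpo (SE 0.59) and 0.06 for Elane (SE 0.47). These intervals span more than 1 log2 unit in either direction for S100a8, S100a9, Ngp, Camp and Ltf. Csf3r had a ratio of 0.04 with a narrower interval, -0.12 to 0.20. Rapa females had 5 of 11 mice among the 8 highest, and control females 3 of 9. Of the 10 tested member probes, 2 were called in females, both lower in Rapa and both of Srgn, where 9.37% of all tested probes were called lower (4.64% without control females 6 to 9, with the same 2 member probes). The median ratio over the 10 was -0.02, and over all tested probes 0.023.

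In males no member probe was called, where 0.653% of all tested probes were called in either direction. The ratios of Rapa males to control males were 0.60 for S100a8 (SE 0.73, interval -0.88 to 2.08, limma adjusted p = 0.798), 0.49 for S100a9 (SE 0.71), 0.28 for Ltf (SE 0.71), and between 0.04 and 0.17 for the other 7 probes, Csf3r being at 0.10 (SE 0.08). None of the 10 had an unadjusted p under 0.05 in limma. Ngp was detected in 3 Rapa males and in no control male, and its ratio is one of levels at background. S100a8 and S100a9 were highest in Rapa male 12 (12.39 and 10.83) and control male 3 (11.66 and 10.15). Rapa male 12 was also the highest male for Ngp, Camp, Ltf, Mpo, Elane and Csf3r, the ninth of all mice for the 7 granule and calprotectin genes.

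**Figure D5:**
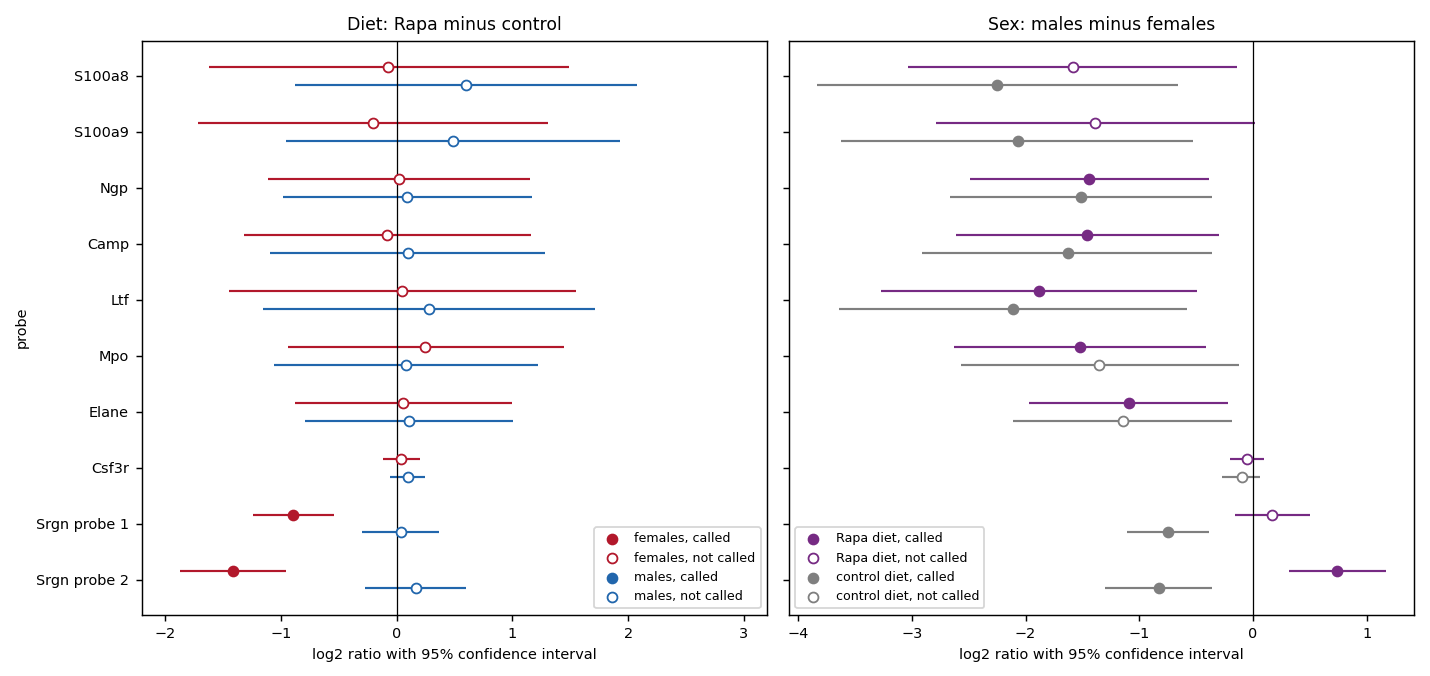
Log2 ratio with its 95% interval (horizontal axis) for the 10 tested member probes, left for Rapa minus control in females and males, right for males minus females on the Rapa and the control diet, filled where called. The diet ratios of the granule genes straddle 0 with wide intervals, Srgn alone is called in females, and the sex ratios of the granule genes lie at or below -1.09.

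Between the sexes, Ngp, Camp and Ltf were called lower in males on both diets. Since these 3 and Mpo entered the tests through the females, their calls and the counts below are given as a description and support no difference between the sexes. On the Rapa diet, 5 of the 10 member probes were called lower in Rapa males than in Rapa females, where 16.3% of all tested probes were. Ltf averaged 7.38 ± 0.47 in Rapa males (SD, n = 12) and 9.27 ± 2.29 in Rapa females (SD, n = 11), a ratio of -1.88 (SE 0.69, limma adjusted p = 0.0304), and the groups overlapped. The ratio was -1.44 for Ngp (adjusted p = 0.0281), -1.52 for Mpo (0.0285), -1.46 for Camp (0.0438) and -1.09 for Elane (0.0460), and for each of these 5 genes all 12 Rapa males were below the mean of the Rapa females. S100a8 (-1.58, adjusted p = 0.0809) and S100a9 (-1.39, adjusted p = 0.119) were not called. Leaving out Rapa female 5, 9 or 11 took the count of called member probes, higher or lower, to 1 in place of 6, and leaving out Rapa female 3 or 8 took it to 3. Over the 42 fits that each left out 1 mouse, the call was lost in 14 for Camp and in 16 for Elane. Most of these fits were without a Rapa male. With 3 principal components of never-detected probes as covariates none was called, and the ratio turned to 0.51 for Camp, 0.40 for Mpo and 0.59 for Elane. With runs of close animal numbers as a block 3 were called.

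On the control diet, 7 of the 10 were called lower in control males than in control females, where 17.7% of all tested probes were. S100a8 averaged 9.51 ± 0.90 in control males (SD, n = 10) and 11.75 ± 2.39 in control females (SD, n = 9), a ratio of -2.25 (SE 0.79, limma adjusted p = 0.0195). S100a9 had a ratio of -2.07 (adjusted p = 0.0266), Ltf -2.11 (0.0228), Camp -1.63 (0.0338) and Ngp -1.51 (0.0309), and for each of these all 10 control males were below the mean of the control females. Since no control male array detected Ngp, its mean there is only a bound, computed against the lowest level of a detected probe on each male array. Against that bound, 7.27, the mean of control females was at least 2.50-fold higher. Mice 5, 6 and 9 (11.79, 9.66 and 12.15) set much of that mean, and the control female median, 7.32, was near the bound. Mpo (-1.35, adjusted p = 0.0692) and Elane (-1.14, adjusted p = 0.0504) were not called. Without control females 6 to 9 no member probe was called lower, where 11.8% of all tested probes still were, and the ratio of S100a8 was -1.84 (adjusted p = 0.121). Leaving out control female 5 or 9 left 2 called, and leaving out control female 6 left 3. With the same 3 components none was called and all 5 ratios turned above 0, to 2.26 for S100a8, 3.03 for S100a9, 1.23 for Ltf, 1.65 for Camp and 0.86 for Ngp, and with the block of animal numbers 3 were called. By medians the sexes were closer than by means: S100a8 had a median of 10.10 in Rapa males and 10.89 in Rapa females, and of 9.43 in control males and 10.87 in control females.

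The difference between the diet ratios of the sexes was not called for any of the 7 granule and calprotectin genes or for Csf3r. It was -0.66 for S100a8 (female minus male, SE 1.06, interval -2.81 to 1.48, limma adjusted p = 0.713), and lay between -0.69 and 0.17 for the others.

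Srgn was the member that fell with Rapa in females. By probe 1 it ran between 7.69 and 8.46 in Rapa females (median 7.75) and between 8.10 and 10.36 in control females (median 8.85), with 7.70 to 8.52 in Rapa males and 7.70 to 8.51 in control males. By probe 2 it was at 7.38, 7.49, 7.25, 7.33, 7.83, 7.10, 7.14, 7.20, 7.86, 7.32 and 7.47 in Rapa females 1 to 11, and at 7.83, 8.15, 8.09, 8.05, 8.97, 9.12, 8.82, 8.99 and 11.20 in control females 1 to 9. Rapa females 5 and 9, at 7.83 and 7.86, touched the lowest control female, and the other Rapa females were below every control female. Probe 2 was detected in 4 of 11 Rapa females and in 9 of 9 control females.

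Both probes were lower in Rapa females. In Rapa females probe 1 fell by 0.89 (SE 0.17, limma adjusted p = 0.000204) and probe 2 fell by 1.41 (SE 0.23), and all 11 Rapa females were below the control mean with both. As 7 of the 11 Rapa female arrays did not detect probe 2, its ratio may understate the difference, and the sizes of the 2 probes are not compared. The female diet ratio minus the male one was -0.92 for probe 1 (SE 0.24, limma adjusted p = 0.00483) and -1.57 for probe 2 (SE 0.31, adjusted p = 0.000319), where 8.51% of all tested probes were called lower. With the 3 components as covariates neither was called, at -0.46 for probe 1 (adjusted p = 0.462) and -1.06 for probe 2 (adjusted p = 0.138). Control females 5 to 9 were at 8.85 to 10.36 with probe 1 and control females 1 to 4 at 8.10 to 8.26, so that the 4 arrays that stood apart, with mouse 5, were the upper part of the control group. Without control females 6 to 9 the female ratio was -0.46 for probe 1 (adjusted p = 0.0417) and -0.82 for probe 2 (adjusted p = 0.000294). The difference between the sexes then stood at -0.49 for probe 1 (adjusted p = 0.0836, not called) and -0.99 for probe 2 (adjusted p = 0.000556), where 5.12% of all tested probes were called lower.

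Between the sexes Srgn probe 2 was called higher in males on the Rapa diet and lower in males on the control diet, the second only with control females 6 to 9 in the fit. Probe 2 averaged 8.14 ± 0.22 in Rapa males (SD, n = 12) and 7.40 ± 0.25 in Rapa females (SD, n = 11), a ratio of 0.74 (SE 0.21, limma adjusted p = 0.00532), where 15.8% of all tested probes were called higher. It averaged 7.97 ± 0.31 in control males (SD, n = 10) and 8.80 ± 1.02 in control females (SD, n = 9), a ratio of -0.83 (SE 0.23, adjusted p = 0.00378). Probe 1 had ratios of 0.17 on the Rapa diet (not called) and -0.75 on the control diet (called). On the control diet without control females 6 to 9 the ratio was -0.32 for probe 1 (adjusted p = 0.0952) and -0.24 for probe 2 (adjusted p = 0.247), neither called. The 3 components turned these control-diet ratios to 0.43 and 0.60, and left probe 2 on the Rapa diet at 1.66, none of them called. In ascending order the means of probe 2 stood at 7.40 in Rapa females, 7.97 in control males, 8.14 in Rapa males and 8.80 in control females, and the 2 male groups did not differ beyond their spread.

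Csf3r, the only receptor of the 9, was dim and narrow in range, yet across mice its r with S100a8 was 0.803 (0.868 over males alone). It ran between 7.36 and 8.14 in Rapa females, 7.33 and 7.97 in control females, 7.39 and 7.85 in Rapa males and 7.32 and 7.68 in control males, and no comparison called it. Its highest mouse was Rapa female 9 and the next control female 5 (8.14 and 7.97), both of the 8 high females, while control female 6, also of the 8, was at 7.41 and not detected.

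Other genes of the neutrophil, taken from lists by function, were set beside the members. Of 15 tested granule genes, 12 had an r over 0.5 with S100a8 across mice and 11 had at least 6 of the 8 high females among their 8 highest mice, against 8.61% and 2.74% of all tested probes. Prtn3, Ctsg, Cd177, Retnlg and Pglyrp1 had all 8. The 8 mice were picked by the members' own levels, so these counts, here and below, are a description. Ctsg and Cd177 passed the filter at its limit of 9 arrays. Of the list genes that did not pass it, Ms4a3 had all 8, Stfa1 and Olfm4 had 4 each and Stfa2 had 2. Serpinb1a, which encodes an inhibitor of the neutrophil serine proteases and is also expressed outside neutrophils, had an r of -0.765. In Rapa females 1 granule gene of the 15 was called lower, where 9.37% of all tested probes were: Wfdc21, a whey acidic protein, fell by 0.85 (limma adjusted p = 0.00550), and its r with S100a8 was 0.236. Its ratio was -0.59 and not called (adjusted p = 0.198) without control females 6 to 9. In males none was called. In control males, against control females, 5 of the 15 were called lower, where 17.7% of all tested probes were: Lcn2, a siderophore-binding protein that hepatocytes also secrete (-2.32, adjusted p = 0.0206), Chil3 (-1.66, 0.0335), Wfdc21 (-0.90, 0.00177), Mmp9 (-0.80, 0.0157) and Hdc (-0.63, 0.0378). None of these 5 was called without control females 6 to 9 (adjusted p = 0.0801 to 0.218).

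Of 15 tested neutrophil receptors and signalling genes, 12 had an r over 0.5 with S100a8. Only 4 had at least 6 of the 8 high females on top, among them Ltb4r1, the leukotriene B4 receptor, with all 8. In Rapa females Trem1, a receptor that amplifies inflammatory signals, fell by 0.16 (adjusted p = 0.0247, and 0.0956 without control females 6 to 9), and no other was called. In control males, against control females, 5 of the 15 were called lower, where 17.7% of all tested probes were. Only Clec4e (-0.31) and Trem1 (-0.20) stayed called without control females 6 to 9 (limma adjusted p = 0.0372 and 0.00924). On the Rapa diet 2 were called lower in males and 1 higher, where 16.3% and 15.8% of all tested probes were. Clec4e was at -0.24 there (adjusted p = 0.00297). Cxcr2, the main chemokine receptor of mouse neutrophils, was detected on 4 arrays and not tested. Of 9 tested transcription factors and enzymes, 7 had an r over 0.5 and 2 had at least 6 of the 8 high females on top. Cebpe, the C/EBP factor needed for specific granules, rose by 0.35 in Rapa females (adjusted p = 0.0434, and 0.104 without control females 6 to 9) and had an r of 0.476 with S100a8, and Gfi1, a repressor needed for neutrophil differentiation, had 0.678. Cxcl1, a ligand of Cxcr2 that hepatocytes also secrete, ran between 9.15 and 13.62 in Rapa females, 9.09 and 13.68 in control females, 9.73 and 12.46 in Rapa males and 8.77 and 13 in control males, had an r of 0.80 with S100a8 and 6 of the 8 high females on top, and was not called with Rapa in females (0.31, adjusted p = 0.745). Cxcl2 and Cxcl5 were detected on no array, nor was Itgam, which encodes the integrin chain CD11b of neutrophils and monocytes.

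Marker genes of other cells were read in the same way. Of 10 tested acute phase genes of hepatocytes, 8 had an r over 0.5 with S100a8 and 7 had at least 6 of the 8 high females on top, among them Apcs (r = 0.857), Orm2 (0.833), Lcn2 (0.817) and Saa1 (0.779). Their summed intensity was 93710 to 253600 in Rapa females, 82830 to 270900 in control females, 87940 to 219900 in Rapa males and 76610 to 261300 in control males. Lcn2 and Hp stand on both the acute phase list and the granule list. Of all tested probes, 8.61% had an r over 0.5 with S100a8 and 2.74% had at least 6 of the 8 high females on top. Of 4 monocyte genes 3, of 5 platelet genes 4 and of 8 Kupffer cell genes 4 had an r over 0.5. So did 2 of 4 erythroid, 1 of 5 T and NK cell and 1 of 2 cholangiocyte genes, and the 1 tested gene of mast cells, basophils and eosinophils. Of 6 hepatocyte, 8 sinusoidal endothelial, 8 stellate, 6 B cell and 3 proliferating cell genes none did. In Rapa females 1 of 4 monocyte genes, 1 of 8 Kupffer cell genes, 3 of 6 hepatocyte genes, 2 of 8 endothelial genes and 2 of 8 stellate cell genes were called lower, and none of these was called higher, against 9.37% of all tested probes called lower. The monocyte gene was Ctss, a lysosomal protease of monocytes and macrophages (-1.01, adjusted p = 0.000889), and the Kupffer cell gene was Adgre1, which encodes the macrophage marker F4/80 (-0.56, adjusted p = 0.0482). The other 3 monocyte genes were between -0.24 and 0.23, and the other 7 Kupffer cell genes between -0.25 and 0.06. Without control females 6 to 9 neither was called, at -0.45 for Ctss (adjusted p = 0.216) and -0.33 for Adgre1 (adjusted p = 0.508). Summed over the 8 Kupffer cell genes the intensity was 10060 to 31780 in Rapa females and 9489 to 21930 in control females, and over the 4 monocyte genes 740.3 to 3098 in Rapa females and 920.8 to 4923 in control females. The part of any of these cells in the members' levels was not tested.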

How the data were processed

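Bead intensities of 42 liver arrays were deposited by the authors on a linear scale without normalization or visible background subtraction, each with a detection score that is a fraction between 0 and 1, and the detection p was taken as 1 minus that score. The authors also deposited log2 values, quantile-normalized by them, for 17082 of the 25697 probes, which were used as an alternative. No column of per-sample values was left unused. The intensities were log2-transformed and quantile-normalized over all probes and arrays. The tests took probes that 9 or more arrays detected (p under 0.05). A model with 1 mean per group was fitted to the 42 arrays by limma, version 3.58.1 (R 4.3.3, statmod 1.5.0), p-values were adjusted by the Benjamini-Hochberg method over 12719 probes, and the fit was tested on simulated data. Figures were drawn with matplotlib 3.10.9 in Python. Intervals are 95% intervals of limma's moderated test.

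Groups were those of the labels. All 9 members were named by every probe, with the genes of 5 lists (4 of neutrophils and the S100 relatives) that were called in a comparison (up to 4 by the lowest adjusted p in females), and the 5 probes nearest in pattern to each member. Further list genes were named after their values were seen. The members and lists were chosen with earlier results of these data known. A list gene was read by its brightest probe, list sums were taken over tested genes on the normalized linear scale, and symbols were those of the platform annotation.

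Alternatives were the authors' values, background correction, median centring, other detection filters and fold thresholds, the methods' t-test, fits on the compared groups, array weights, the replicate number or runs of close animal numbers as a block, principal components of never-detected probes, and leaving out each mouse or control females 6 to 9. The sources used here do not give cages, litters, the slide of each array or the scale of the detection score, which was read from the values. The number of arrays limits the precision, and no protein was measured.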

Additional observations from a re-analysis of the deposited data

Results flagged for a closer look

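Among control males, mouse 3 stood apart from the other 9 for both subunits of calprotectin. S100a8 was at 11.66 there and at 10.11 in the next mouse, and S100a9 was at 10.15 there and at 8.80 in the next. Among control females, mouse 9 stood apart for Srgn, at 10.36 with probe 1, next to 9.08, and at 11.20 with probe 2, next to 9.12. These mice were flagged because the gap to the nearest mouse took more of the group's range than Dixon's 95% value allows, in 4 of 30 sets of 9 or 10 mice, and chance flags about 1 set in 20. The sets are probes read in the same mice, and the flags fell on control male 3 and control female 9 alone. They are thus not independent, and their count cannot be set against that rate. Groups of 11 and 12 mice were not tested in this way.

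The diet ratio of Srgn differed between the sexes by -0.92 for probe 1 and by -1.57 for probe 2 (female minus male, limma's interaction term), as given above with its value without control females 6 to 9.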

How the results depend on the processing

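Both Srgn probes were called in Rapa females, and no member probe in Rapa males, under every alternative in which they were tested. With probes detected on all arrays Srgn probe 2 was not tested (1 probe called in females, 1 for the difference of the diet ratios, 3 between the control sexes and 0 between the Rapa sexes). Without control females 6 to 9 the difference of the diet ratios was called for 1 and the control sexes for 0. The control sexes had 2 called with the methods' t-test and 3 with array weights. With runs of close animal numbers as a random block, both sex comparisons had 3. With 3 principal components of never-detected probes as covariates, the difference of the diet ratios and both sex comparisons had 0 called. Of the probes called in the main fit, the ratio of control males to control females then turned to 2.26 for S100a8, 3.03 for S100a9, 0.86 for Ngp, 1.65 for Camp, 1.23 for Ltf, 0.43 for Srgn probe 1 and 0.60 for Srgn probe 2. That of Rapa males to Rapa females turned to 0.51 for Camp, 0.40 for Mpo and 0.59 for Elane. Ratios not called in the main fit turned too. Those of Rapa males to control males then lay between -1.88 (S100a8) and -0.02 (Csf3r). Mpo and Elane turned to 1.82 and 1.42 between the control sexes, and S100a8 and S100a9 to 0.68 and 1.57 between the Rapa sexes. The S100a8 difference of the diet ratios turned to 1.58. None of these turned ratios was called, and the cause was not tested. Leaving out each mouse in turn gave 2 called in females, 0 in males, 2 for the difference of the diet ratios, 2 to 9 between the control sexes and 1 to 7 between the Rapa sexes. Whether the replicate numbers pair the mice was not tested. An r over 0.1 was found in 26 of 58 same-numbered pairs. Their mean r was 0.19 between Rapa and control females (other pairs -0.01) and -0.06 to 0.06 between the other groups. With the replicate block 2 were called in females, 0 in males, 2 for the difference, 9 between the control sexes and 8 between the Rapa sexes. Median centring moved the median of all ratios to 0.14 between the control sexes, -0.13 in males and 0.19 for the difference. Near background, as for Ngp, Camp and Mpo in males and Srgn probe 2 in Rapa females, ratios may understate a difference.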

Other observations

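Relatives of the calprotectin genes were measured too. S100a10, which forms a complex with annexin A2, fell by 0.79 in Rapa females (limma adjusted p = 0.000158) and had an r of -0.439 with S100a8 across mice, and S100a1 rose by 0.33 (adjusted p = 0.0116) with an r of 0.157. Without control females 6 to 9 S100a10 was still called (-0.74, adjusted p = 0.00730) and S100a1 was not (0.30, adjusted p = 0.0729). S100a6 and S100a11 had an r of 0.808 and 0.678 with S100a8 and were not called in females. These values were read after the members were described.

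Prg2, the major basic protein of eosinophil granules, had 6 of the 8 high females among its 8 highest mice, and an r of 0.779 with S100a8. Hba-a1, an alpha globin of red cells, and Ppbp, a platelet chemokine, had 7 of the 8.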
